A study of Mus musculus with 4 samples.

Results

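Annexins Anxa1, Anxa2, Anxa3 and Anxa5 and the simple keratins Krt7, Krt8, Krt18 and Krt19 are described here, 8 genes of the 27873 listed in all 4 libraries, found by their symbols. The libraries hold stria vascularis, the cochlear epithelium that makes the endocochlear potential, from CBA/J mice at postnatal day 30, with no other treatment or genotype. There were 3 captures of whole cells freed with trypsin, each labelled as about 12 mice, and 1 capture of nuclei from about 10 mice. The paper's supplement gives fewer mice per cell capture than the labels, and fewer in the first capture than in the others. Animals were pooled within a capture, so a capture is the replicate for cells and nuclei have none. The 8 genes were chosen by earlier results of these data, on their level in spindle/root cells against other strial cell types. Their difference between types is therefore a description, with no test.

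Annexins are calcium-dependent proteins that bind acidic membrane phospholipids. ANXA2 forms a complex with S100A10, and ANXA1 is known as a pro-resolving mediator that is abundant in neutrophils. Simple keratins build the intermediate filaments of single-layered epithelia as pairs of a type II chain, KRT7 or KRT8, with a type I chain, KRT18 or KRT19. Spindle cells lie at the edges of the stria, and root cells lie in the neighbouring spiral ligament. Both carry the anion exchanger pendrin, the product of Slc26a4.

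After filters, 377, 1314 and 1461 cells of captures 1 to 3 and 9723 nuclei were kept, at median depths of 3873 to 5050 UMIs per cell and 1497 per nucleus. Of these, 30 cells and 211 nuclei fell in spindle/root clusters, with 4, 13 and 13 cells in the captures. Capture 1 is below the minimum of 5 cells per sum, so its values are given apart and do not enter means. All 5 markers of the type (Slc26a4, P2rx2, Kcnj16, Lgr5 and Epyc) were found in each library's spindle/root sum, at 2159 to 5343 summed CPM (UMIs of a gene scaled to a fixed total per library sum) in cells and 2956 in nuclei. In marginal, intermediate and basal cells the same sum was 0 to 52.4 CPM, and in their nuclei 16.2 to 28.6. Clusters were named by these same markers, so the sums describe the groups and do not test their names. The comparison types were 133 marginal, 932 intermediate and 37 basal cells, and 2574, 1464 and 652 nuclei. Pairs of libraries shared 0 to 32 cell barcodes. Marginal marker RNA (8 of 8 genes) was also present in spindle/root cells, at 908 to 1706 CPM against 4888 to 5199 in marginal cells. Intermediate markers (5 or 6 of 9 genes) stood at 476 to 658 CPM there and at 5389 to 8677 in marginal cells. In spindle/root nuclei the same sums were 1954 CPM for marginal markers, against 9601 in marginal nuclei, and 2660 for intermediate markers, against 34975 in intermediate nuclei. The part of such RNA in the results was not tested.

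On the mm10 build, as annotated by GENCODE vM21, Krt7 (15:101411043-101430313, plus strand), Krt8 (15:101996698-102004482, minus strand) and Krt18 (15:102028180-102032027, plus strand) lie on 1 chromosome. Krt8 and Krt18 point away from each other, 23697 bases apart, with 0 annotated genes between them. Krt19 lies elsewhere (11:100140810-100148665, minus strand). The annexin genes are dispersed: Anxa5 (3:36448923-36475894, minus), Anxa3 (5:96793339-96845966, plus), Anxa2 (9:69453620-69491795, plus) and Anxa1 (19:20373428-20390944, minus). Anxa1, Anxa2, Krt7 and Krt8 each overlap an annotated non-coding gene on the other strand. RefSeq promoters (GRCm38.p6) were found for 6 of the 8 members, not for Anxa3 and Krt19. The 4 that hold the letters TATAA on either strand are shown from 250 bases before the start to 10 after, 5′ to 3′ on the gene's strand. Capitals mark TATAA, which 24.0% of all 27025 promoters of this length hold, GGGCGG (33.7%) and TGACTCA (4.62%), each on either strand. These matches are letters and not shown sites. The promoters of Anxa5 and Krt7 hold no TATAA in this window, and Krt7 holds 4 copies of GGGCGG, counting both strands. In Krt8 the capitals are TATAA on both strands, which overlap.
Anxa1 (chr19:20390662-20390921, minus): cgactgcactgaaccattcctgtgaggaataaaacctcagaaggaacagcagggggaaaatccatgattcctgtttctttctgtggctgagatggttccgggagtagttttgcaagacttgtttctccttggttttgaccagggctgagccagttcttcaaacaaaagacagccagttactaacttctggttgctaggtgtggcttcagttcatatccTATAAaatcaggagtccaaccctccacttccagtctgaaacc
Anxa2 (chr9:69453433-69453692, plus): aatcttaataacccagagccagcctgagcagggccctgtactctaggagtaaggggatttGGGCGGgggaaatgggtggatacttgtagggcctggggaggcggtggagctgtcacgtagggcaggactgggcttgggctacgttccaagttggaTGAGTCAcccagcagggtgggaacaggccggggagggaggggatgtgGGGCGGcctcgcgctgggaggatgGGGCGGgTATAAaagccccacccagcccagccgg
Krt8 (chr15:102004333-102004592, minus): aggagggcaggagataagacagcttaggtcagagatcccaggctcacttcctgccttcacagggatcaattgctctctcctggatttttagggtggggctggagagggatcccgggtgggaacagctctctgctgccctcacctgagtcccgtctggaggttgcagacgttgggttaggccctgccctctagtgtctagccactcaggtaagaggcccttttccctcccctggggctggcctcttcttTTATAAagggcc
Krt18 (chr15:102027966-102028225, plus): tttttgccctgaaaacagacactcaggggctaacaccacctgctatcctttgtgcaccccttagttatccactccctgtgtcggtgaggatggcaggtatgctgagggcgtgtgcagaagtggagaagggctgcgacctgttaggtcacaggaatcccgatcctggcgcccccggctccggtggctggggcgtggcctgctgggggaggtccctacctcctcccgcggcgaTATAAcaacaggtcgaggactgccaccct

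Spindle/root cells held the highest level of 6 of the 8 members among the 4 main strial types, in both captures with enough cells. Within them most UMIs of these 6 members came from the P2rx2/Wfdc18 cluster described below. Anxa1 stood at 4113 and 7196 CPM in captures 2 and 3, and at 2319.9 CPM in the 4 cells of capture 1. In marginal cells, Anxa1 was at 159, 483 and 129 CPM in captures 1 to 3. The spindle/root mean was 22.0 times the marginal mean, 279.8 times the intermediate mean and 58.8 times the basal mean. Each capture of spindle/root cells lay above every capture of the other 3 types. Within marginal cells, 85.0% of the Anxa1 UMIs of capture 1 and 41.6% of those of capture 2 came from 1 cell each, and these cells also held 379 and 1448 UMIs of Wfdc18. Without that cell, marginal Anxa1 stood at 25.4 and 285 CPM in captures 1 and 2. Spindle/root levels rested on few cells too. In capture 2, Anxa1 was found in 4 of 13 spindle/root cells, and 1 of them gave 51.8% of its UMIs. Without it spindle/root Anxa1 stood at 2315 CPM. In capture 3 the spindle/root cell with most UMIs gave 26.0%, and without it the level was 6259 CPM.

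Anxa2, whose protein pairs with S100A10 at the membrane, was at 1524 and 2244 CPM in spindle/root cells of captures 2 and 3 and at 838 in capture 1. Marginal cells held 31.9, 114 and 60.2 CPM, and basal cells held 248, 235 and 194 CPM. The groups did not overlap, and basal cells came second, 8.35 times below the spindle/root mean. Anxa5, which binds phosphatidylserine, was at 2819 and 5916 CPM, with 1961 in capture 1. Marginal cells held 398, 620.1 and 359 CPM, so the ratio was 9.51, the smallest of the annexins against marginal cells. In these cells Anxa5 was the most widely found of the 8, with a UMI in 25 of 30 spindle/root, 118 of 133 marginal and 544 of 932 intermediate cells. In capture 2, 1 spindle/root cell gave 46.6% of the Anxa2 and 47.4% of the Anxa5 UMIs. Without it these levels were 950 and 1730 CPM. In capture 3 the spindle/root cell with most UMIs of each gave 27.8% and 31.7%, and without it the levels were 1763 and 4754 CPM.

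Anxa3 differed from the other annexins. It was at 52.2 and 52.9 CPM in spindle/root cells of captures 2 and 3, from 5 UMIs each, and at 15.0 CPM from 1 UMI in capture 1. Basal cells held 31.0, 119 and 64.8 CPM in captures 1 to 3, so spindle/root and basal cells overlapped, with a ratio of means of 0.733. Marginal and intermediate cells held 5 and 7 UMIs in all. The order was the same in nuclei, where Anxa3 was at 43.0 CPM (exact Poisson 95% interval 31.7 to 57.0) in basal and 21.9 CPM (9.46 to 43.2) in spindle/root nuclei, and these intervals overlap.

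Of the keratins, Krt7, Krt8 and Krt18 were at low levels or 0 in intermediate and basal cells. Krt18, the type I partner of KRT8, was at 960.5 and 1206 CPM in spindle/root cells of captures 2 and 3 and at 344 in capture 1. Marginal cells held 51.8, 56.1 and 36.6 CPM, intermediate cells 1.63 to 3.10, and basal cells 0 UMIs in all 3 captures. Spindle/root cells were 22.5 times above marginal cells and at least 172-fold higher than basal cells, taking 3 UMIs over the group as the floor. Krt8 followed, at 564 and 709 CPM (179.6 in capture 1) against 31.9, 52.4 and 34.4 CPM in marginal cells. Krt7 was at 334 and 370.4 CPM (74.8 in capture 1) against 12.0, 39.9 and 34.4 CPM in marginal cells, a ratio of 12.2. By their means marginal cells came second for these 3 keratins, though for Krt7 they overlapped with basal cells, which held 10.3, 16.6 and 0 CPM. Intermediate cells held at most 4.27 CPM of Krt7 and 2.45 of Krt8. In capture 2, 1 cell gave 70.7% of the Krt18, 72.2% of the Krt8 and 84.4% of the Krt7 UMIs. Without it these levels were 329, 183 and 60.9 CPM, still above every marginal capture. In capture 3 the cell with most UMIs gave 40.3 to 51.4% of these keratins, and without it the levels were 978, 584 and 248 CPM.

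**Figure D1:**
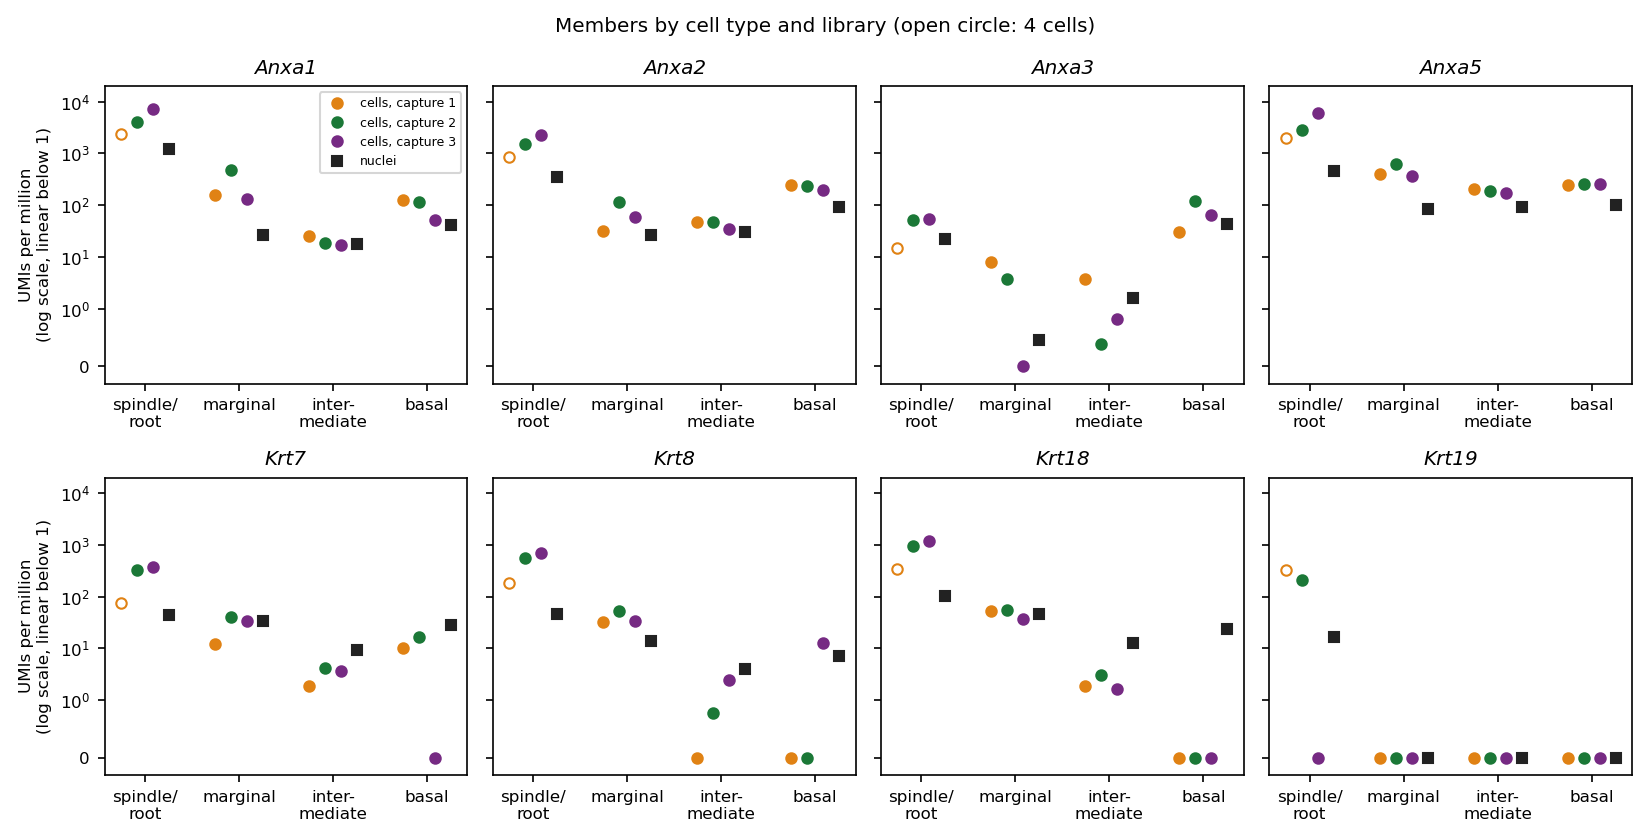
Level of each member in CPM (log axis, linear below 1) by cell type, with a circle for each cell capture and a square for nuclei. An open circle marks the 4 spindle/root cells of capture 1. Spindle/root values stand highest for Anxa1, Anxa2, Anxa5, Krt7, Krt8 and Krt18 in cells, Anxa3 overlaps with basal cells, and Krt19 is at 0 in marginal, intermediate and basal cells.

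In all, 7 of the 8 members had every spindle/root capture above every marginal capture, and Krt19 did not. Over all 5712 genes tested, 26.3% did so. Against marginal, intermediate and basal cells together, 6 of 8 did so, and 15.2% of all genes. As the members were chosen on this contrast, these counts are given beside the background and nothing is read from them. Only Krt19 did not pass the filter on low counts. Mitochondrial UMIs made a median of 9.23 to 11.7% of spindle/root cells and 24.7 to 29.4% of marginal cells, and leaving these UMIs out of the totals changed neither count. The sizes rest on single captures. On a log2(CPM + 1) scale Anxa1 stood 4.45 above marginal cells, 5.63 without capture 2 and 3.67 without capture 3. Anxa5 stood 3.25 above them, with 3.96 and 2.47 in the same way, and Anxa2 4.76 above, with 5.58 without capture 2. Anxa3 stood 3.45 above, and 4.22 without capture 1.

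Ratios to marginal nuclei were smaller than those in cells for Anxa2, Anxa5, Krt7, Krt8 and Krt18, and larger for Anxa1. For Anxa3 the ratio was 47.5 in nuclei and 13.5 in cells. These rest on 2 UMIs in marginal nuclei and 5 in marginal cells, so no order is read from them. Anxa1 was at 1233 CPM (1122 to 1352, exact Poisson 95% interval, counting error only) in spindle/root nuclei and at 26.1 CPM (21.5 to 31.3) in marginal nuclei, a ratio of 47.3. Anxa2 was at 348 against 26.1 CPM, a ratio of 13.3 where cells gave 27.5, and Anxa5 at 455 against 83.3 CPM, a ratio of 5.46 where cells gave 9.51. Krt18 was at 101 CPM (71.4 to 140) against 45.9 (39.8 to 52.7), a ratio of 2.21 where cells gave 22.5. Krt8 was at 46.6 against 13.8 CPM, a ratio of 3.37. Krt7 was at 43.8 CPM (25.1 to 71.2) against 34.4 (29.1 to 40.4), and these intervals overlap. In nuclei 7 members, all but Krt7, had an interval above that of marginal nuclei. Krt8 and Krt18 also lay above basal and intermediate nuclei, while Krt7 overlapped with basal nuclei (18.9 to 39.4 CPM). All 3 overlapped with Reissner's membrane nuclei, at 4.49 to 63.6 CPM for Krt7 and Krt8 and 16.0 to 94.8 for Krt18. Krt8 overlapped with fibrocyte nuclei as well (4.73 to 44.5 CPM). Krt19, with 7 UMIs in all, is outside the 10917 genes with at least 50 UMIs, among which 6 of 7 members and 12% of genes had such an interval. Cells and nuclei were prepared in different ways from different mice and the nuclei are 1 library, so the gap between their ratios was not tested.

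The spindle/root cells fell into 2 clusters, formed without the 8 members and the listed genes, and levels of the members differed between them. Besides members, 1 cluster of 11 cells was led by Wfdc18, Lect1 and P2rx2, a subunit of ATP-gated channels. The other, of 19 cells, was led by Epyc, Gpx2 and Lum and held Lgr5, a receptor for R-spondins. The spindle/root nuclei were divided the same way, into 95 nuclei of 2 clusters led by Wfdc18, Lect1 and Kcnq5 among others, and 116 nuclei of 1 cluster with Epyc and Lum among its leading genes. All 11 cells of the P2rx2/Wfdc18 cluster held UMIs of Anxa1, Anxa2, Anxa5, Krt8 and Krt18, while 8 held Krt7, 4 Anxa3 and 0 Krt19. Of the 19 cells of the Epyc/Lgr5 cluster, 2 held Anxa1, 13 Anxa2, 14 Anxa5, 3 Krt8 and 3 Krt18. Krt7 was found in 1 of these 19, Anxa3 in 0 and Krt19 in 6. The Epyc/Lgr5 cells were shallower, and the share of other genes found in all 11 cells was not taken, so no order is read from these counts. Anxa1 UMIs per cell ran from 64 to 204 in the first, with a median of 91. In the second, 17 of 19 cells had none. The remaining 2 had 23 and 6 Anxa1 UMIs, no Epyc or Lgr5 UMI and totals of only 1930 and 1606 UMIs. Genes that form clusters vary together, so the split is a description. The share of all genes that differ between the clusters was not taken, so nothing is read from the number of members that do.

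**Figure D2:**
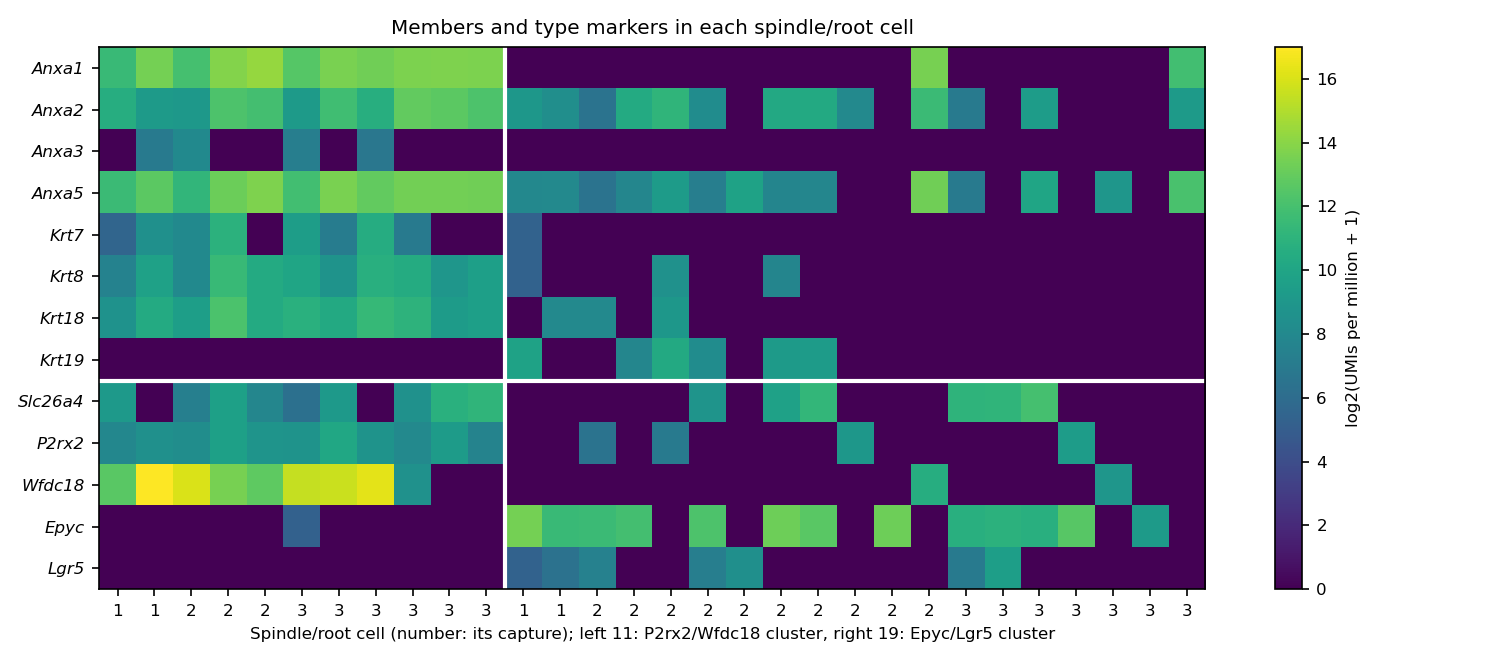
Each column is 1 of the 30 spindle/root cells, with its capture as the number below, and each row a gene, coloured by log2(CPM + 1). The 11 cells on the left, of the P2rx2/Wfdc18 cluster, hold Anxa1, Anxa2, Anxa5, Krt8 and Krt18 in every cell. Of these 11, 8 hold Krt7, 4 hold Anxa3 and none holds Krt19. All 6 cells with Krt19 are on the right, in the Epyc/Lgr5 cluster.

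Krt18 was at 1611 CPM (1405 to 1839) in the P2rx2/Wfdc18 cells and at 82.5 CPM (39.6 to 152) in the Epyc/Lgr5 cells. Its level in the first was 665, 2282 and 1661 CPM in captures 1 to 3, and in the second 81.6, 120 and 0. The same held for Krt8, at 942 against 41.3 CPM, and for Krt7, at 522 against 8.25 CPM. Of the annexins, Anxa1 was at 8828 against 239 CPM, Anxa5 at 6643 against 470.5 and Anxa2 at 2516 against 594. Anxa2 and Anxa5 were still found in 13 and 14 of the 19 Epyc/Lgr5 cells. Means over captures of marginal cells were 257 CPM for Anxa1, 459 for Anxa5, 39.6 for Krt8 and 28.8 for Krt7. For these 4 genes the summed Epyc/Lgr5 cells were therefore at a similar or lower level than marginal cells. For Anxa2 the marginal mean was 68.6 CPM, below the Epyc/Lgr5 level, and for Krt18 48.2, within the Epyc/Lgr5 interval. All 11 Anxa3 UMIs were in the P2rx2/Wfdc18 cells. In nuclei, Anxa1 was at 2941 CPM (2674 to 3227) against 18.8 (5.11 to 48.0), with a UMI in 81 of 95 nuclei against 4 of 116. The 95 nuclei are a cluster of 44, with Anxa1 at 2557 CPM, and one of 51, with Anxa1 at 3423 CPM, which has fewer raised markers and takes its name from the cluster it was split from. Krt18 was at 218 against 18.8 CPM in nuclei, and Krt8 at 85.7 against 18.8 with intervals of 45.6 to 147 and 5.11 to 48.0, which overlap. Marginal nuclei held 26.1 CPM of Anxa1, 45.9 of Krt18 and 13.8 of Krt8. Median depths of the P2rx2/Wfdc18 and Epyc/Lgr5 groups were 9360 and 4811 UMIs in cells and 1367 and 1585.5 in nuclei.

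Krt19, a type I keratin without the tail domain, ran the other way in cells. It was at 347 CPM (250 to 469) in the Epyc/Lgr5 cells, from 42 UMIs in 6 of 19 cells, and at 0 UMIs in the 11 P2rx2/Wfdc18 cells. It was found in captures 1 and 2, with 22 and 20 UMIs, and in none of the 13 spindle/root cells of capture 3. All 22 UMIs of capture 1 came from 1 cell. Capture 3 held more of the P2rx2/Wfdc18 cells than either other capture, so cluster and capture are partly mixed in the summed levels. In nuclei 6 UMIs in 5 of 116 Epyc/Lgr5 nuclei gave 28.1 CPM (10.3 to 61.2), and the 95 other nuclei held 0 UMIs (0 to 24.3 CPM), and these intervals overlap. Of all kept cells, 42 of 43 Krt19 UMIs lay in spindle/root cells, and of kept nuclei 6 of 7. Of the 6 cells with Krt19, 5 had Epyc, 2 had Lgr5, 1 had Krt18, 3 had Krt8 and 0 had Anxa1.

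**Figure D3:**
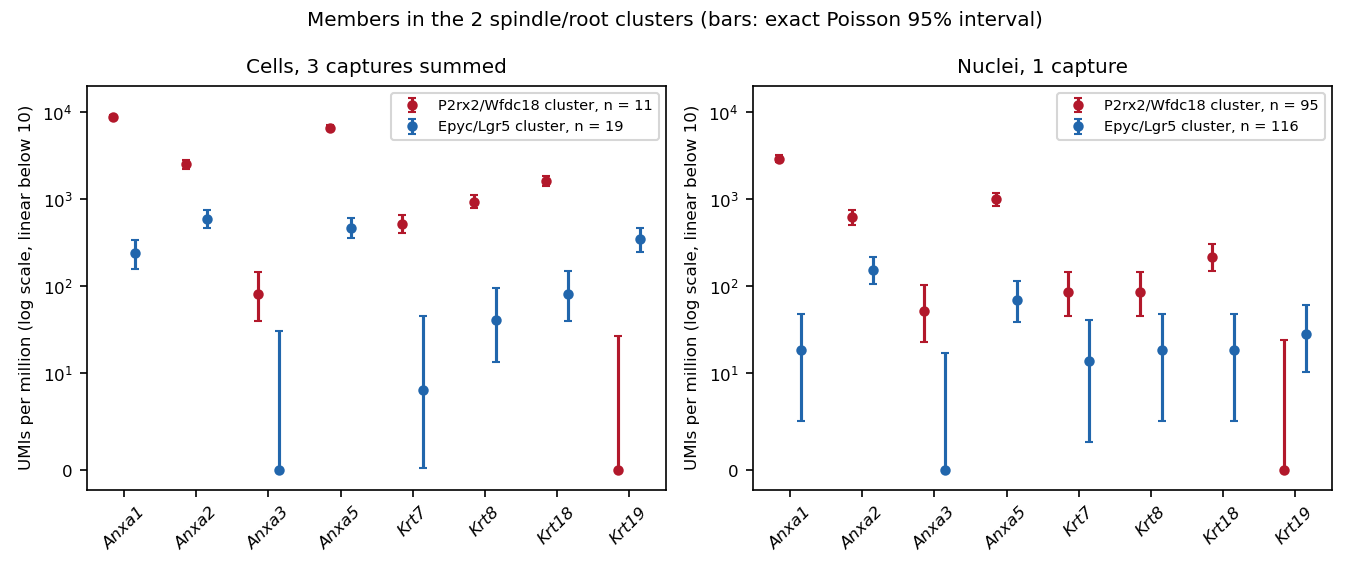
Level of each member in CPM (log axis, linear below 10) in the P2rx2/Wfdc18 and Epyc/Lgr5 clusters, for cells summed over captures (left) and nuclei (right), with exact Poisson 95% intervals. Members other than Krt19 stand higher in the P2rx2/Wfdc18 cluster in both. Krt19 stands higher in the Epyc/Lgr5 cluster, and its intervals overlap in nuclei as those of Krt8 do. The share of all genes that differ between the clusters was not taken, so nothing is read from the number of members.

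Splitting the barcodes by an Lgr5 or Epyc UMI, in place of the clusters, gave 15 cells with and 15 without. Anxa1 was at 1178 CPM with and 8456 without, and in nuclei at 176 CPM in 83 with and 2049 in 128 without. Krt18 was at 408 and 1383 CPM in these cells. P2rx2 was found in 3 of the 15 cells with such a UMI and 12 of the 15 without. Of the 15 cells with such a UMI, 1 had Anxa1, the P2rx2/Wfdc18 cell with a single Epyc UMI. That cell also gave 47 of their 53 Krt18 UMIs, and without it the other 14 were at 57.8 CPM (21.2 to 126) of Krt18 and had no Anxa1 UMI (0 to 35.5 CPM). Krt19 was found in 5 of 15 cells with and 1 of 15 without, and in nuclei in 5 of 83 and 0 of 128.

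Pendrin RNA was present in both clusters. Slc26a4 was found in 9 of 11 P2rx2/Wfdc18 cells and 6 of 19 Epyc/Lgr5 cells, while its levels were 463 and 512 CPM with overlapping intervals. In nuclei it was found in 44 of 95 and 36 of 116, at 673 CPM (548 to 816) and 483 CPM (394 to 586), which overlap as well. Of 32 kept cells with an Slc26a4 UMI, 15 lay in spindle/root clusters and 17 in others. In those 17, Krt18 stood at 134 CPM (93.3 to 186), Anxa1 at 1849 (1688 to 2022) and Krt19 at 0, beside 1203, 6651 and 52.6 CPM in the 15. Of the 17, 9 also held Wfdc18, whose level over all 17 was 14389 CPM. In nuclei, 80 of 160 with an Slc26a4 UMI lay in other clusters, where Anxa1 was at 269 CPM and Krt18 at 61.8.

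The share of barcodes with a UMI did not always follow the levels. Before thinning, Anxa1 was found in 43.3% of spindle/root cells and 64.9% of basal cells, Anxa2 in 80.0% and 89.2%, and Anxa5 in 83.3% and 91.9%, at median depths of 6629 and 11730 UMIs, so no order is read from these shares. Krt18 was found in 14 of 30 spindle/root cells (46.7%, exact binomial 95% interval 28.3 to 65.7), 38 of 133 marginal cells (28.6%, 21.1 to 37.0) and 14 of 932 intermediate cells. Erythroid cells, which should lack simple keratins, gave 0 of 101, for which a limit of 3 counts allows a share of cells with a UMI of up to 2.97%, at a median of 10220 UMIs against 6629 in spindle/root cells. After thinning to 1000 UMIs, Krt18 was found in 26.7% of spindle/root and 3.01% of marginal cells, and Anxa1 in 43.3% and 9.77%. In thinned basal cells Anxa1 was found in 8.11%, Anxa2 in 16.2% and Anxa5 in 27.0%, below the 43.3%, 60.0% and 63.3% of spindle/root cells. In nuclei, Krt18 was found in 13.3% of spindle/root, 7.23% of marginal and 2.06% of erythroid nuclei, and after thinning to 500 UMIs in 4.74%, 2.18% and 0.412%. Anxa3 fell to 0 of 30 spindle/root cells after thinning, so its share there was not detectable at this depth.

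Krt8 and Krt18, whose products pair, were found together in most of the cells that held either. Of 30 spindle/root cells, 14 had Krt8, 14 had Krt18 and 12 had both. There were 0.522, 0.587 and 0.588 Krt8 UMIs per Krt18 UMI in spindle/root cells of captures 1 to 3, and 0.615, 0.933 and 0.941 in marginal cells. In nuclei the ratio was 0.459 in spindle/root nuclei, from 17 Krt8 and 37 Krt18 UMIs, and 0.302 in marginal nuclei, from 60 and 199. No interval was taken for these ratios, and the marginal ratio of capture 1 rests on 8 and 13 UMIs, so no order is read from them. All 9 cells with Krt7 also had Krt8. In the shallower nuclei 14 had Krt8, 28 had Krt18 and 7 had both, and none of the 13 with Krt7 had Krt8. By likeness over 17 sums of a capture and a named type, which share libraries and differ in depth, the 2 genes with the pattern most like Krt8 were Cxadr (Pearson r = 0.92) and Ildr1 (0.91), and the same 2 led for Krt18 (0.90 and 0.88). Anxa5 was most like Sirt2 (0.94), Anxa2 like Gabarap (0.94), Krt7 like Calml4 (0.93), Anxa1 like Get4 (0.92) and Anxa3 like Cebpb (0.87). Second came Pebp1 for Anxa5 (0.93) and Krt7 (0.91), Pfdn5 for Anxa2 (0.93), Rab6a for Anxa1 (0.86) and Palm for Anxa3 (0.86). Krt19 had too few UMIs for this measure.

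Other genes of the same families were tested beside all 5712 genes. Of these, edgeR called 14.6% higher and 9.49% lower against the 3 types, and 13.2% and 12.4% against marginal cells. With so few genes tested per family, a count of 0 is near these shares, and nothing is read from it. Of 8 other annexins, 4 could be tested (Anxa4, Anxa6, Anxa7 and Anxa11), and 0 were higher or lower in spindle/root cells in either contrast by the quasi-likelihood test of edgeR, adjusted after Benjamini and Hochberg. DESeq2 called 0 of them. Only Anxa6 had an unadjusted p under 0.05 in edgeR, against the 3 types (log2 fold change 0.94 ± 0.40 SE, adjusted p = 0.0717, and 0.0214 to 0.0446 under 4 alternatives), and in none of the 4 was it so against marginal cells. Of 22 other epithelial keratins, Krt10 and Krt14 could be tested and neither passed in edgeR or DESeq2, with 1 unadjusted p under 0.05 (Krt14 against marginal cells, adjusted p = 0.0619 in edgeR). Of 4 testable intermediate filament genes of other classes (Vim, Nes, Synm and Lmna), 0 passed in edgeR and 1, Nes, in DESeq2 against the 3 types. In edgeR 3 of these 4 had an unadjusted p under 0.05 in each contrast, among them Vim, the mesenchymal filament vimentin, at 2.29 (log2) above the 3 types with an adjusted p of 0.119. The call for Vim depended on the capture, since it passed without capture 1 (2.38, adjusted p = 0.0342, edgeR). Without capture 3 its log2 fold change was 3.01, and without capture 2 its sign turned (-7.22). In these last 2 fits only 1 spindle/root sum is left, so no p-value is given. The test rests on 2 spindle/root sums, so a p that misses the threshold does not show equal levels. The clusters and the test use the same counts, although the listed genes were kept out of the genes that formed clusters.

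Several annexin partners were called higher, within a limit set by the filter on low counts. Of 9 listed, 5 could be tested, and against the mean of marginal, intermediate and basal cells 4 were higher and Ahnak was not, with a median log2 fold change of 3.17 beside -0.05 over all genes. In the same contrast 14.6% of all 5712 genes were called higher and 9.49% lower. A gene low in the other types can pass the filter on low counts through the spindle/root sums alone. The number of partners called higher and their median can therefore in part be set by the filter, and nothing is read from them. Over the 19 genes tested of all these lists 4 were higher. Without capture 1 the filter left 21 to test and 7 were higher, beside 837 of all 6279 genes. Without capture 2 or capture 3 only 1 spindle/root sum is left, so no count of listed genes is given. S100a6, a calcium sensor, was at 397 and 667 CPM in spindle/root cells of captures 2 and 3, 479 in capture 1, and 12.0, 41.2 and 10.8 CPM in marginal cells. Its log2 fold change was 5.47 ± 0.31 (adjusted p = 3.35e-45, edgeR). S100a11, which binds ANXA1, was at 1169 and 1132 CPM against 31.9, 89.8 and 77.4 CPM in marginal cells, a log2 fold change of 3.17 ± 0.17 against the 3 types (adjusted p = 1.39e-57, edgeR). S100a10, the ANXA2 partner, was at 271 and 360 CPM against 23.9, 43.7 and 25.8 CPM. Basal cells reached 227 to 348 CPM for S100a10, and the log2 fold change was 1.71 ± 0.26 (adjusted p = 1.41e-09, edgeR). Plat, tissue plasminogen activator, was at 146 and 180 CPM against 15.1 to 29.9 in marginal cells and 0 in basal cells (5.52 ± 0.65, adjusted p = 1.16e-14, edgeR). Plat and S100a6 were low in marginal cells, so each may have passed the filter through the spindle/root sums. Their p-values are therefore not read as support. The lists were also chosen with earlier results of these data known, so no p-value of a listed gene is read as support.

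Against marginal cells alone all 5 testable partners were higher, Ahnak with them (log2 fold change 1.40 ± 0.32, adjusted p = 0.000146, edgeR). In this contrast 13.2% of all genes were called higher and 12.4% lower. The same limit of the filter holds here. Of 4 testable keratin linker and desmosome genes, Dsp, the desmosomal plaque protein that anchors keratins, was lower (-1.29 ± 0.39, adjusted p = 0.00708, edgeR). Without capture 3 only 1 spindle/root sum is left, so no call is given there for Ahnak or Dsp. Dsp passed neither in DESeq2 (adjusted p = 0.0733) nor with every Slc26a4 barcode as spindle/root (-0.47, adjusted p = 0.263, edgeR). Dsp was at 73.1 and 63.5 CPM in spindle/root cells and at 119.5, 146 and 183 CPM in marginal cells, and in capture 1 its 4 spindle/root cells held 135 CPM. S100a6 was also split between the clusters, at 809 CPM in P2rx2/Wfdc18 and 189.8 in Epyc/Lgr5 cells, and at 138 and 0 CPM in the nuclei, while S100a10 was at 338 and 248 CPM in cells with intervals that overlap.

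**Figure D4:**
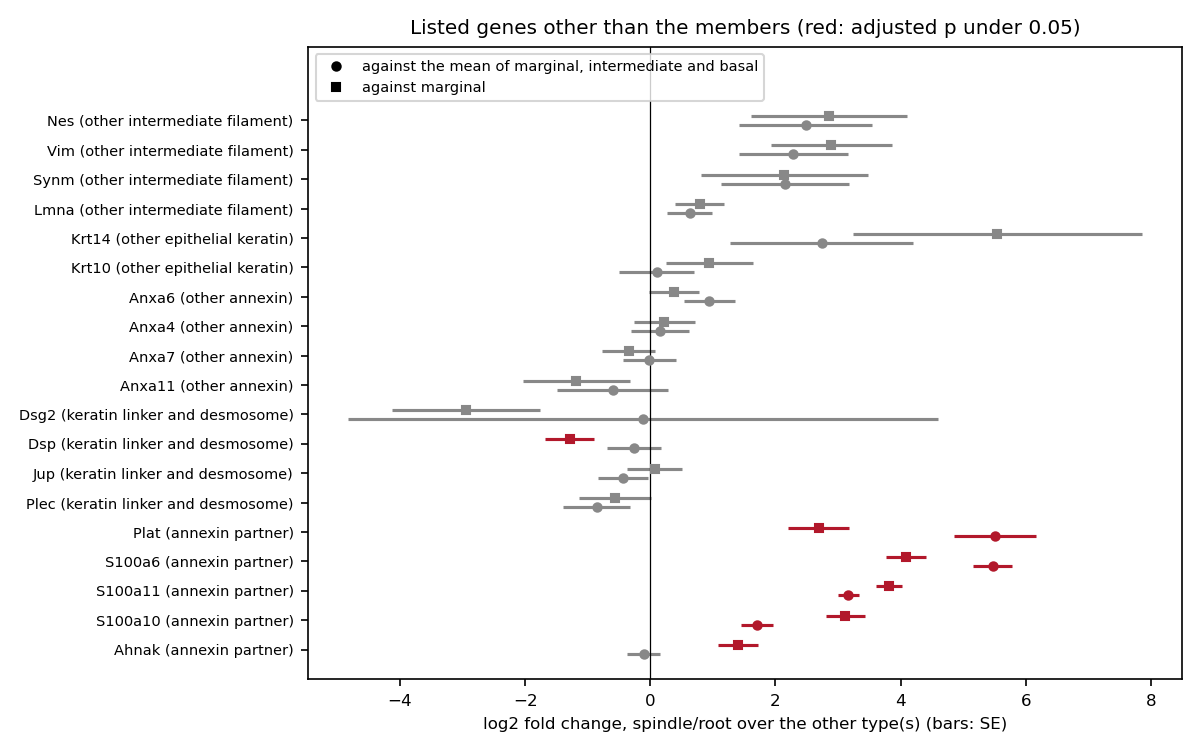
Log2 fold change for the 19 testable listed genes outside the immediate-early and heat shock list, with an SE derived from the test's F statistic. Spindle/root is set against the mean of the other 3 types (circles) and against marginal cells (squares), red where the adjusted p is under 0.05. The annexin partners S100a6, S100a10, S100a11 and Plat stand above 0 in both, and Dsp is lower against marginal cells.

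Several immediate-early and heat shock genes, which dissociation can raise, were also higher in spindle/root cells. Of 11 tested, 7 were higher in spindle/root cells against the 3 types and 0 lower, beside 14.6% and 9.49% of all genes. Against marginal cells 7 were higher and 1, the phosphatase gene Dusp1, was lower (log2 fold change -1.22 ± 0.47, adjusted p = 0.038, edgeR). Fos and Hspa1a passed the filter on low counts only through the spindle/root sums. Fos stood at 62.6 and 106 CPM there and at most at 10.3 CPM in the other 3 types. Hspa1a stood at 127 and 136 CPM against at most 31.0. The counts of higher genes are therefore partly set by the filter, and nothing is read from them. The summed level of the list was 1317 to 1619 CPM in spindle/root, 658 to 849 in marginal, 293 to 527 in intermediate and 933 to 1517 in basal cells. Spindle/root and basal cells overlapped in this sum. In nuclei it was 266 CPM in spindle/root and 379 in marginal nuclei. Fos was at 110.3 CPM (61.8 to 182) in P2rx2/Wfdc18 and 33.0 (9.0 to 84.5) in Epyc/Lgr5 cells, and these intervals overlap. It was at 0 UMIs in both groups of nuclei. The part of this response in the members' levels was not tested. Macrophage markers gave 0, 0 and 1 UMIs and neutrophil markers 0, 0 and 3 UMIs in the spindle/root cells of captures 1 to 3, over 9 genes each, so 7 of the 9 neutrophil markers were at 0 in all 3. In nuclei the neutrophil sum was 112 CPM in spindle/root and 127 in marginal nuclei.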

How the data were processed

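The authors made 10x Chromium 3′ libraries and deposited unnormalised UMI counts, a matrix of genes by barcodes per capture, made with Cell Ranger 2.0.0 on mm10 per the labels. The cell libraries list 27998 genes and the nuclei 48816, and the annotation release and the counting of introns are not given in the sources used here. Barcodes held 2811309, 8113494 and 8340882 UMIs in captures 1 to 3 and 22332501 in nuclei. No column of another series was present (0 unused columns).

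Barcodes with at least 200 genes were kept, and those with the highest Scrublet scores were removed at 0.8% per 1000 barcodes (1, 15 and 20 cells, 978 nuclei). Cells and nuclei were clustered separately (Seurat 5.3.0, R 4.3.3, 2000 variable genes without the members and listed genes, 37 and 44 components by JackStraw, resolution 0.8), without removing differences between captures. Clusters were named from fixed markers, a class needing 3 raised markers and a clear lead over the next, and clusters of mixed markers were clustered again. The naming rule was revised after the clusters were seen, and clusters it could not name (217, 760 and 852 cells of captures 1 to 3 and 3848 nuclei) enter no type. Names rebuilt in this way can differ from the study's.

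CPM is a gene's UMIs divided by all UMIs of a capture and type, times 1e+06, given as mean over captures with at least 5 cells of the type, so that spindle/root means and tests rest on 2 captures. As UMIs are read at the 3′ end, levels are not compared between genes. Intervals are exact Poisson or binomial at 95%, and cover counting error only. Ratios against a group at 0 use 3 UMIs over the group. Listed genes that are not members were tested on these sums with edgeR 4.0.16 (quasi-likelihood, TMM, filterByExpr, capture as a block because the types of a capture come from 1 suspension) with Benjamini-Hochberg adjustment over 5712 genes at 0.05. The SE beside an edgeR log2 fold change is its size divided by the square root of the quasi-likelihood F statistic, so it restates the test. DESeq2 1.42.0 was an alternative. The steps were tested on simulated data. Likeness is Pearson's r of log2(CPM + 1) over sums, among genes with at least 50 UMIs.

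The members and lists were chosen with earlier results of these data known. Named genes are the members, listed genes past the test, binding partners of a member, and the 2 genes most like each member. Others were named after their values were seen: those with an unadjusted p under 0.05, the testable ones of each list, and Wfdc18 and Fos. Alternatives with at least 3 cells per sum and without mitochondrial UMIs were chosen after seeing the data, as was the division by cluster within spindle/root barcodes.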

Additional observations from a re-analysis of the deposited data

Results flagged for a closer look

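In nuclei, 3 annexins were higher in neutrophils, a type outside the comparisons above, than in spindle/root nuclei, with exact Poisson intervals that do not overlap. In 73 neutrophil nuclei Anxa1 stood at 4011 CPM, Anxa2 at 541 CPM and Anxa3 at 315 CPM, beside 1233, 348 and 21.9 CPM in 211 spindle/root nuclei. These are levels in 1 library with no replicate. In cells of capture 3 the order was the other way for 2 of the 3 annexins. There Anxa1 stood at 3108 CPM in 7 neutrophils against 7196 in 13 spindle/root cells, and Anxa2 at 311 against 2244 CPM. Anxa3 stood at 178 CPM (48.4 to 455) against 52.9 (17.2 to 123), and these intervals overlap.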

How the results depend on the processing

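Spindle/root means and tests rest on 2 captures of 13 cells each, and nuclei on 1 library, and Anxa3 has only 11 UMIs in 30 cells. Krt19 was at 209 CPM (128 to 322) in capture 2 and 0 (0 to 39.0) in capture 3, which held as many spindle/root cells, and the cause was not tested. Over the clustering, filter and capture alternatives, the counts of members that did not overlap changed with the setting. They are not given here, as shares over all genes stand beside the main setting only. Without capture 2 or capture 3 only 1 spindle/root sum is left, so nothing is read from these counts. All 8 log2 ratios to marginal cells stayed above 0 except Krt19, at 0 without capture 2, where both types have no UMI.

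Outside the immediate-early list, 4 of 19 tested listed genes were higher against the 3 types, beside 835 of all 5712 genes. With every Slc26a4 barcode as spindle/root 8 of 16 were, beside 483 of 4658. With at least 3 cells per sum 8 of 17 were, beside 890 of 5020. Without a filter on low counts 7 of 37 were, beside 785 of 15275. Without capture 1, whose spindle/root cells are not in the sums, 7 of 21 were (Vim, Pkp2 and Pkp3 added), beside 837 of 6279. The genes tested changed with the setting, so no gain or loss is read from these counts. Without capture 2 or capture 3 only 1 spindle/root sum is left, and no count of listed genes is given. Of the same lists, 1 of 19 (Dsp) was lower against marginal cells, beside 710 of all 5712 genes. By DESeq2 it was 0 of 19 (362 of 5712), and with the Slc26a4 barcodes 0 of 16 (275 of 4658). With at least 500 genes per barcode it was 2 of 20 (806 of 7344). With members allowed among the variable genes it was 2 of 20 (838 of 7446), and without removing doublets 2 of 20 (852 of 7578). Without the filter it was 2 of 37 (769 of 15275), and without the replicate block 2 of 19 (697 of 5712). It was 1 of 21 without capture 1 (700 of 6279). Nothing is read from these counts. Without the replicate block 4 of 19 listed genes were higher against the 3 types and 6 of 19 against marginal cells, in place of 4 and 5. Of all 5712 genes 803 and 718 were then higher. Dsp against marginal cells did not pass in edgeR with the Slc26a4 barcodes (log2 -0.47, adjusted p = 0.263), nor in DESeq2 (-1.20, adjusted p = 0.0733). Without capture 3, with only 1 spindle/root sum left, the log2 fold changes against marginal cells were -1.01 for Dsp and 0.99 for Ahnak. Against the 3 types, where neither passed (Ahnak -0.10, Dsp -0.26), the sign turned for Ahnak with 20 components (0.0164), without removing doublets (0.0651), with 500 genes per barcode (0.0291), with members allowed (0.0577), without TMM scaling (0.11), with the Slc26a4 barcodes (0.65) and, over left-out captures, from -0.28 to 0.0568, and for Dsp with the Slc26a4 barcodes (0.52) and with 3 cells per sum (0.11). Anxa6 against the 3 types passed with 20 components, the Slc26a4 barcodes, 3 cells per sum and no TMM scaling. Nes against the 3 types passed in DESeq2, and Krt14 against marginal cells without the replicate block. Vim against the 3 types ran from -7.22 to 3.01 over left-out captures. The causes of these changes were not tested.

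Calls over all genes depend on scaling. Against the 3 types 835 genes were higher and 542 lower in edgeR, 849 and 272 in DESeq2, and 1079 and 370 without TMM scaling, which moved the median of all genes from -0.05 to 0.17. Against marginal cells the counts were 754 and 710, 710 and 362, and 871 and 613. With the Slc26a4 barcodes they were 483 and 105 against the 3 types. Without capture 2 or capture 3 a single spindle/root sum is left, so no count is given. After thinning, the share of spindle/root cells with a UMI was 60.0% for Anxa2, 0% for Anxa3, 63.3% for Anxa5, 20.0% for Krt8 and 26.7% for Krt18, and of nuclei 28.4% for Anxa1, 11.4% for Anxa2, 13.3% for Anxa5, 2.37% for Krt7, 2.84% for Krt8 and 4.74% for Krt18.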

Other observations

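Some members were also found in cell types outside the stria's main ones. In the 7 neutrophils of capture 3, Anxa1 was at 3108 CPM, Anxa2 at 311 CPM from 7 UMIs, Anxa3 at 178 CPM from 4 UMIs and Anxa5 at 88.8 CPM from 2 UMIs. In 73 neutrophil nuclei Anxa5 was at 189 CPM against 455 CPM in spindle/root nuclei, and Anxa1 at 4011 CPM. B cells of capture 3 held Anxa2 at 146 CPM from 18 UMIs, and no Anxa1 UMI. Fibrocytes of captures 2 and 3 held Anxa3 at 67.0 and 69.6 CPM, near the basal mean of 71.7 CPM. Nuclei of the Reissner's membrane type held Anxa1 at 109 CPM, from 15 UMIs in 96 nuclei.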
